A study of Homo sapiens with 11 samples.

Results

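The peaks of trimethylated histone H3 lysine 27 (H3K27me3) in SK-N-MC cells were examined. SK-N-MC is an established human Ewing sarcoma line that carries the EWSR1::FLI1 fusion, and every sample was labelled as wildtype, with no treatment named. The antibody against H3K27me3 came from Active Motif. All 3420 peaks of the single H3K27me3 list were taken, of 134925 peaks in the 9 lists of the study, and were described with and without chromosome 8, which held 950 of them. The other 8 lists, for HDAC2, MTA2, RBBP4 and CHD4 (the last with a Flag antibody), all subunits of the nucleosome remodelling and deacetylase complex NuRD, for FLI1, and for H3K27ac, H3K4me1 and H3K4me3, served as annotation. Each target had 1 sample, which leaves every value without a replicate, and sequencing depth is unknown because the files give no reads. Brackets hold Wilson intervals at 95%, which cover counting error over peaks or genes only, and neighbouring peaks are not independent.

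H3K27me3 is written by Polycomb repressive complex 2, whose catalytic subunit is EZH2, and marks genes that are kept silent, above all developmental transcription factors and signalling genes with CpG-rich starts. The mark typically spreads over wide domains, which a caller of narrow peaks breaks into pieces. The same lysine can carry acetylation, found at active promoters and enhancers, and a single residue cannot hold both. Regions with H3K27me3 together with H3K4me3, a mark of promoters, are called bivalent.

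Gene starts under the strongest peaks were mostly rich in CpG. The promoter windows shown run from 250 bases before to 50 after the start in RefSeq, build GRCh38.p14, 5′ to 3′ on the gene's strand, with every CG dinucleotide in capitals. They are those of the 4 genes with the highest H3K27me3 fold enrichment over the window, RAPGEF4, PHF24, FAM131B and TMOD2, and of the 2 with the highest H3K4me3 fold enrichment among windows with both marks, SEMA7A and PPIC. Fold enrichment is the authors' value at a peak's summit, a ratio over background from their peak caller.
RAPGEF4 (chr2:172735595-172735894, plus strand): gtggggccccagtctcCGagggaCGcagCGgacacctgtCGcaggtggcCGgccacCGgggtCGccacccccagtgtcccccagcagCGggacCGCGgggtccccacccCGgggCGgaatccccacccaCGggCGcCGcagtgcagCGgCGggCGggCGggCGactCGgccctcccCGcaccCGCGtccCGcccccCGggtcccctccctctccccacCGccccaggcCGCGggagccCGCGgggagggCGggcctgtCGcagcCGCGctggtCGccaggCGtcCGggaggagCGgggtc
PHF24 (chr9:34957237-34957536, plus strand): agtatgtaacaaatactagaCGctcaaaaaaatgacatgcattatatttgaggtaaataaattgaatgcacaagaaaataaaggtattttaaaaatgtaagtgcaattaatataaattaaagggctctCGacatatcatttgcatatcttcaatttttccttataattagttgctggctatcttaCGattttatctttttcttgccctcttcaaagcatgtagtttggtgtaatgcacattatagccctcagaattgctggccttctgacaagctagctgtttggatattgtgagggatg
FAM131B (chr7:143362031-143362330, minus strand): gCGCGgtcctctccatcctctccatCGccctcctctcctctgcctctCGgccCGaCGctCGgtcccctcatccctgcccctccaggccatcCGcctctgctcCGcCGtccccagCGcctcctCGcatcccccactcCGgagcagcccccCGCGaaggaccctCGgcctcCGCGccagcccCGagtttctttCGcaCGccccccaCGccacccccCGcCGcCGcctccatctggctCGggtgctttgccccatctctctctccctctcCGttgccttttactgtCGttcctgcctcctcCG
TMOD2 (chr15:51751347-51751646, plus strand): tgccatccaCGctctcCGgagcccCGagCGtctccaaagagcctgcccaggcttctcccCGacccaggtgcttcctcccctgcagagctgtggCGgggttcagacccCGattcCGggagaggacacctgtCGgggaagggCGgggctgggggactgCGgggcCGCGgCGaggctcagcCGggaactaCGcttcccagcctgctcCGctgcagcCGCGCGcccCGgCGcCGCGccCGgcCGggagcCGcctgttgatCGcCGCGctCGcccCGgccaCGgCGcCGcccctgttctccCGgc
SEMA7A (chr15:74433655-74433954, minus strand): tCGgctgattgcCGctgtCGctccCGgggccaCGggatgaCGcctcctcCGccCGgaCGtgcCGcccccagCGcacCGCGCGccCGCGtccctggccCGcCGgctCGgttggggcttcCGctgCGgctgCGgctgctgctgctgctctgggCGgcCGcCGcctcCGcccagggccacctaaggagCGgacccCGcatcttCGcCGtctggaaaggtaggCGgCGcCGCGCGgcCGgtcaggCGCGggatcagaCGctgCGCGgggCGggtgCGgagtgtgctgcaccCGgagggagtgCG
PPIC (chr5:123036676-123036975, minus strand): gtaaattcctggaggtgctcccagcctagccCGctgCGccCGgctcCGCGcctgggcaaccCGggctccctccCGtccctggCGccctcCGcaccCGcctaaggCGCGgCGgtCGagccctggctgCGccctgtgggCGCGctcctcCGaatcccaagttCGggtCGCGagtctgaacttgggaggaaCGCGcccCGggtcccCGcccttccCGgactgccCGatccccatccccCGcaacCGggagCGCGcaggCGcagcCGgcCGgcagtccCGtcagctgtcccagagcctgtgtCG

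The window of RAPGEF4, which encodes a cAMP-activated exchange factor for RAP GTPases, held 39 CG dinucleotides and lay wholly inside an H3K27me3 peak of fold enrichment 12.2 and an H3K4me3 peak of fold enrichment 20.003. PHF24 differed, with 3 CG dinucleotides, a GC content of 32.3%, an H3K27me3 peak of fold enrichment 12.2 over 79 bases of the window and no H3K4me3 peak. FAM131B held 29 CG dinucleotides. TMOD2, whose product caps the slow-growing ends of actin filaments in neurons, held 36, and its peak also lay over the start of the neighbouring gene LYSMD2. SEMA7A, a membrane-anchored semaphorin, held 45 CG dinucleotides, with an H3K4me3 fold enrichment of 22.1 over the whole window and 56 bases under H3K27me3. PPIC, a peptidyl-prolyl isomerase, had 36 CG dinucleotides, H3K4me3 of fold enrichment 21.2 over its whole window and 8 bases under H3K27me3. Across all windows of protein-coding genes in the RefSeq promoter file, 214 of 22199 overlapped H3K27me3. The median number of CG dinucleotides, searched as CG and equal on both strands, was 29 (quartiles 22 and 36) in these 214, and 21 (7 and 31) in all 22199. It was 33 in the 81 windows that held both H3K27me3 and H3K4me3, 27 in the 133 with H3K27me3 alone, 28 in the 11707 with H3K4me3 alone, and 7 in the 10278 with neither. At least 1 CG was present in 98.04% of all windows. Windows of 1 gene can overlap, so these counts are not independent.

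The peaks were narrow and few. They covered 2.38 Mb in all, with a median width of 499 bp (quartiles 368 and 776 bp), and 124 peaks were wider than 2 kb. The median fold enrichment was 6.31 (quartiles 5.34 and 7.06), the highest was 12.9, and 26 peaks exceeded 10, all off chromosome 8. The −log10 p ran from 9.09 to 53.2 with a median of 14.2, and 21.2% of peaks lay below 12. Off chromosome 8, 26.1% of peaks shared the 10 commonest fold values, so fold enrichment came in steps there and many ranks were tied. On chromosome 8 the 10 commonest values took in 4.11% of peaks. Region lists of this kind start at a threshold, so a place without a peak may still carry the mark.

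Chromosome 8 held 27.8% (26.3 to 29.3) of the peaks and 36.1% of the covered bases, whereas 3.57% of protein-coding genes lie there. Copy number was not measured in the files used here, and its part in the values of chromosome 8 was not tested. In the other 8 lists its share ran from 3.65% for H3K4me3 to 5.81% for CHD4. Of its 950 peaks, 926 lay beyond 115 Mb, in 6 consecutive 5-Mb bins ending at 145 Mb. Within that stretch the bins differed. The bin from 130 to 135 Mb held 276 peaks with a median fold enrichment of 4.56, the bin from 140 to 145 Mb held 267 with a median of 6.32, and the bin from 125 to 130 Mb held 26 with a median of 3.90. That last bin was the one of the 6 richest in H3K4me1, with 289 peaks, and in CHD4, with 146, against 114 H3K4me1 and 55 CHD4 peaks in the bin from 130 to 135 Mb. The bin from 135 to 140 Mb combined 153 H3K27me3 peaks with 5 H3K27ac peaks and 5 protein-coding genes.

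**Figure D1:**
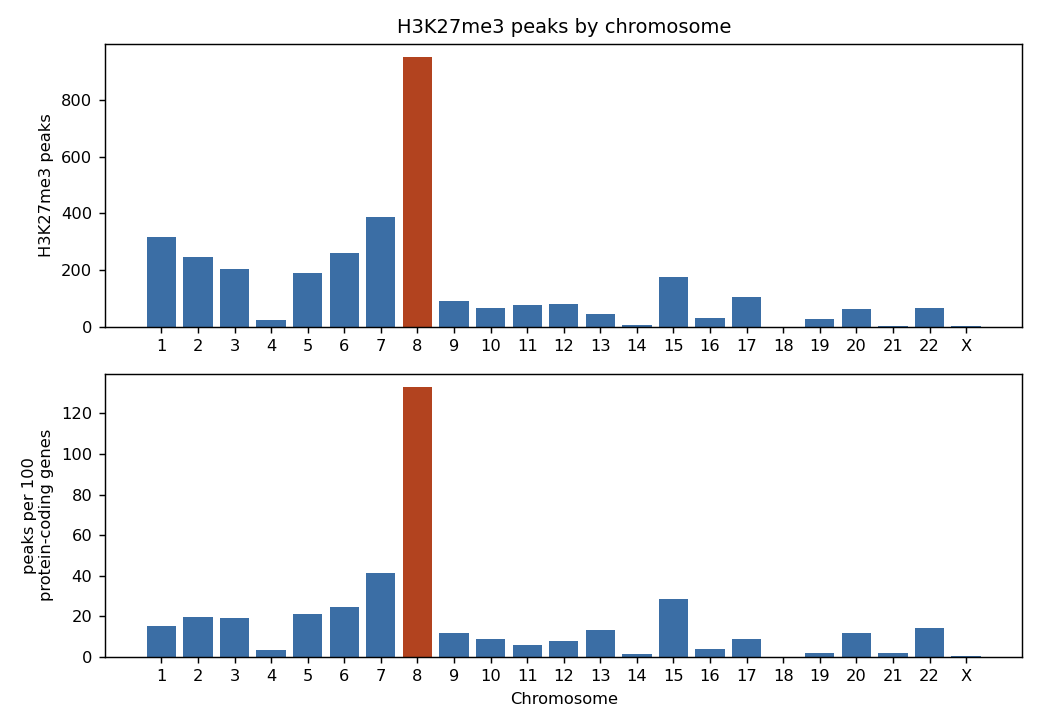
Number of H3K27me3 peaks on each chromosome (upper panel) and the number per 100 protein-coding genes (lower panel), with chromosome 8 in red. Chromosome 8 stands above all others with 950 peaks, followed by chromosome 7 with 387, and chromosome 18 has none.

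Peaks on chromosome 8 were wider and of lower fold enrichment than peaks elsewhere. Their median width was 600.5 bp (quartiles 395 and 1025 bp) on chromosome 8 and 475.5 bp (358 and 700 bp) on other sequences. The median fold enrichment was 4.97 (4.32 and 6.01) on chromosome 8 and 6.597 (5.93 and 7.21) elsewhere. The 24 peaks of chromosome 8 outside the 6 bins beyond 115 Mb had medians of 498.5 bp and 6.815. In the 926 within those bins the medians were 610 bp and 4.95. Fold enrichment was also lower on chromosome 8 among peaks of like −log10 p. Both values come from the caller for the same peak, so this is not a separate check. Between 12 and 15 the median was 4.59 in 366 peaks on chromosome 8 and 6.46 in 989 peaks elsewhere, and between 20 and 30 it was 5.99 in 117 and 8.53 in 175.

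**Figure D2:**
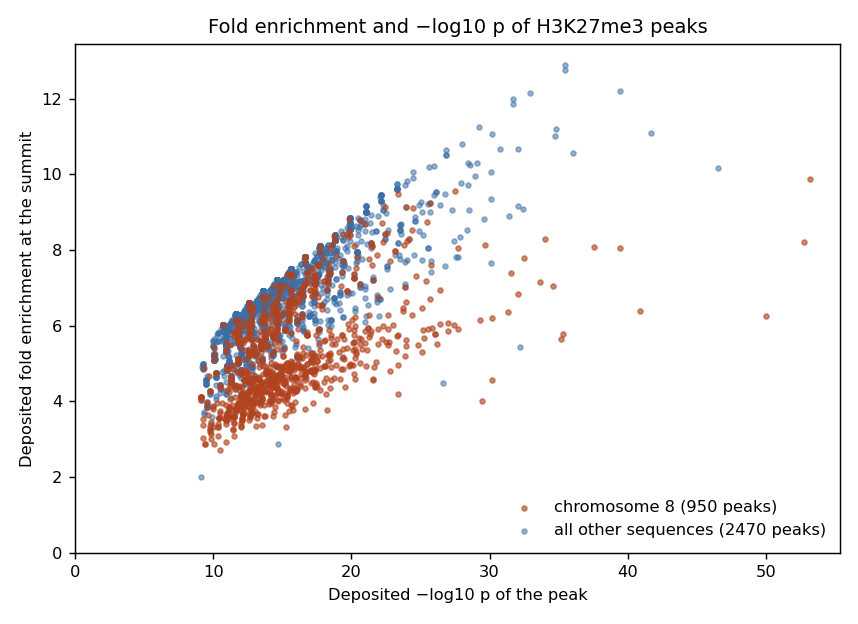
Fold enrichment at the summit against −log10 p for each H3K27me3 peak, with chromosome 8 in red and all other sequences in blue. Most peaks on chromosome 8 form a lower band, with a median of 4.59 between −log10 p 12 and 15 against 6.46 elsewhere, while some lie within the upper band.

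Away from chromosome 8, 2470 peaks remained, spread unevenly. Chromosome 7 carried 387 peaks, or 41.3 per 100 protein-coding genes, and chromosome 15 carried 177, or 28.7 per 100. Chromosome 1 had 317, chromosome 6 had 259 and chromosome 2 had 245. Few peaks fell on chromosomes 4 (25), 19 (26), 14 (7), 21 (4) and X (2), and none on chromosome 18. Chromosome X held 0.0585% of the H3K27me3 peaks and 1.42% to 3.38% of the other lists, and chromosome 14 held 0.205% and 2.01% to 3.30%. Both peaks on chromosome X lay at CITED1, a transcriptional co-activator that binds CBP and p300, at fold enrichments of 8.26 and 7.21. Among the 7 on chromosome 14 were peaks in BMP4, a bone morphogenetic protein, DACT1, a regulator of WNT signalling, and ESRRB, an orphan nuclear receptor. A further 4 peaks lay on 4 unplaced contigs.

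In 5-Mb bins, 21 bins off chromosome 8 with at least 20 peaks each held 859 peaks, or 34.8% of those off chromosome 8. The fullest was the bin from 155 to 160 Mb of chromosome 7, with 149 peaks over 86.0 kb. It holds PTPRN2, a tyrosine phosphatase-like protein of secretory vesicles, and VIPR2, a receptor for vasoactive intestinal peptide. PTPRN2 held 42 peaks over 24.9 kb of its 1049 kb body, the most of any gene off chromosome 8, with no peak of any of the other 8 lists inside the gene. VIPR2 held 20 peaks over 11.3 kb. Next came the first 5 Mb of chromosome 5 with 90 peaks, the bin from 235 to 240 Mb of chromosome 2 with 66, the first 5 Mb of chromosome 1 with 45, and the bin from 25 to 30 Mb of chromosome 7, where the HOXA cluster lies, also with 45.

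Merging peaks within 5 kb gave 1799 domains, 338 on chromosome 8 and 1461 elsewhere. On chromosome 8, 42.3% of domains were single peaks, against 65.1% elsewhere. Domains of at least 2 peaks had a median span of 4.64 kb on chromosome 8 and 2.53 kb elsewhere, and peaks filled 56.5% of their span on chromosome 8 and 48.8% elsewhere. The nearest other peak was within 1 kb for 68.9% of peaks on chromosome 8 and for 45.4% elsewhere. Off chromosome 8 grouped and single peaks had like heights, with a median fold enrichment of 6.61 in 1519 grouped peaks and 6.48 in 951 single ones.

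The 3 domains of greatest covered length on chromosome 8 all lay away from gene ends. The first spanned 45.996 kb (chr8:141576084-141622079, 24 peaks, 25.3 kb covered), with C8orf90 as the nearest gene at 57.4 kb, and the third, of 15 peaks, lay 118 kb from the same gene. The second lay inside FER1L6 (chr8:124049930-124073373) and covered 17.1 kb with 10 peaks. FER1L6 had the greatest overlapped length of all protein-coding genes, at 41.1 kb. ADCY8, a calcium-stimulated adenylyl cyclase, followed with 40.2 kb, and KCNQ3, a subunit of the neuronal M-current potassium channel, with 32.1 kb. TG, which encodes thyroglobulin, held 21.5 kb.

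Off chromosome 8 the domain of greatest covered length lay between genes on chromosome 5 (chr5:1599466-1644494), with 21 peaks over 16.3 kb, 75.5 kb from LPCAT1. Almost as much was covered around SP8 (chr7:20773054-20797607), a zinc-finger factor of limb outgrowth and forebrain patterning, with 12 peaks over 16.3 kb and 2 H3K4me3 peaks. The next was intergenic, 64.3 kb from DLG1 (chr3:197363598-197382481), with 11.1 kb. The domain over HOXA3, HOXA4 and HOXA5 covered 8.92 kb, that inside GCOM1, which runs past the end of MYZAP, a junction protein gene of heart muscle, 8.89 kb, and that inside PRDM16, a regulator of brown fat and blood stem cell identity, 8.83 kb. HES2 and ESPN shared a domain of 7.83 kb in 5 peaks, among them the widest peak off chromosome 8, of 4.09 kb, over HES2, a bHLH repressor. The others of the first 12 lay 47.9 kb from FZD1, inside SP6, a factor of tooth and skin development, inside VIPR2, across an end of VIPR2 and at MINDY4B. None of these 12 domains, nor of the 3 on chromosome 8, held an H3K27ac peak, and the GCOM1 and MYZAP domain alone held a FLI1 peak, in a gap between its H3K27me3 peaks.

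The 10 peaks with the highest fold enrichment off chromosome 8 did not include the widest, but all were wider than most. Their widths ran from 615 to 2838 bp, against a median of 475.5 bp off chromosome 8. Of these 10, the first (12.9, chr1:16793415-16794044) lay 120 kb from the nearest protein-coding gene end, at LOC124903857. The second (12.8) lay 72.5 kb from PRSS3 and the third (12.2) at the start of RAPGEF4. PHF24 (12.2), the neuronal pentraxin gene NPTX1 (12.005), AGAP2 (11.1) and FAM131B (11.1) held peaks inside the gene. A peak of 11.3 lay 3.6 kb from NEUROD2, a bHLH factor of neuronal differentiation, and one of 11.2 lay 0.189 kb from BATF3, a factor of dendritic cell development. The remaining one of the 10 (11.9) lay 32.5 kb from LOC124901235. Of these 10 peaks, those at RAPGEF4, BATF3, AGAP2 and FAM131B and the one nearest to PRSS3 also overlapped H3K4me3.

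Where the peaks lay relative to genes differed between chromosome 8 and the rest. On chromosome 8, 34.6% (31.7 to 37.7) of peaks were inside a protein-coding gene, against 52.9% (50.9 to 54.9) elsewhere. Within 1 kb of either end of a protein-coding gene lay 3.37% (2.40 to 4.72) on chromosome 8 and 22.9% (21.3 to 24.6) elsewhere. The median distance to the nearest such end was 65.6 kb on chromosome 8 and 13.2 kb elsewhere. Among peaks off chromosome 8, 494 lay within 1 kb of a known start.

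The H3K27me3 and H3K27ac lists did not touch. Of 3420 H3K27me3 peaks, 0 overlapped an H3K27ac peak, which allows a share of up to 0.0877% by a floor of 3 counts, or 0.112% as the upper Wilson bound, and 4 had one within 1 kb. FLI1 also overlapped 0 of 3420, with 10 within 1 kb, but the FLI1 list is short, with 1561 peaks. H3K4me1 overlapped 10 peaks (0.292%, 0.159 to 0.537). H3K4me3 was the mark found most often, at 315 peaks (9.21%, 8.29 to 10.2), or 1.26% (0.724 to 2.19) on chromosome 8 and 12.3% (11.03 to 13.6) elsewhere. Requiring the H3K27me3 summit inside the H3K4me3 peak left 201 peaks. No peak of the 8 lists was met by 98.5% of H3K27me3 peaks on chromosome 8 and by 86.3% elsewhere.

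**Figure D3:**
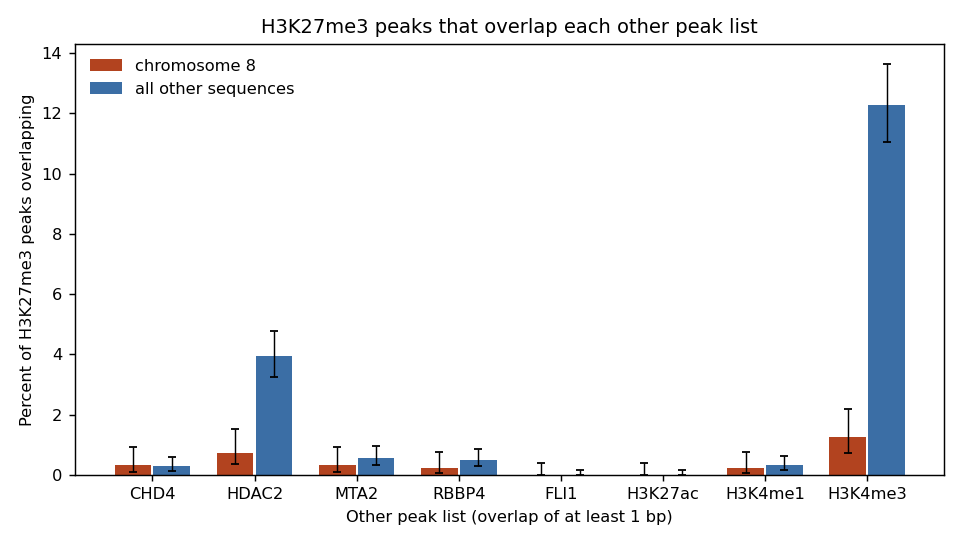
Percent of H3K27me3 peaks that overlap each of the other 8 lists by at least 1 bp, on chromosome 8 (red, left bars) and on all other sequences (blue, right bars), with 95% Wilson intervals as error bars. H3K4me3 reaches 12.3% and HDAC2 3.93% off chromosome 8, while H3K27ac and FLI1 stay at 0.

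Off chromosome 8, 214 of the 303 H3K27me3 peaks with H3K4me3 lay within 1 kb of a protein-coding gene end and 89 farther away. H3K4me3 overlapped 37.9% (34.0 to 41.9) of the 565 H3K27me3 peaks within 1 kb of a protein-coding gene end and 4.67% (3.81 to 5.71) of the 1905 farther away. The 290 H3K4me3 peaks that met H3K27me3 had a median fold enrichment of 10.5 (quartiles 8.38 and 13.2) and a width of 832 bp, against 16.3 (11.3 and 21.2) and 1210 bp for the 15799 that did not. H3K27me3 peaks with H3K4me3 had a median width of 725 bp, against 482 bp for those without, and a wider peak has more room for an overlap. With 50% of the H3K27me3 peak required under H3K4me3, 141 peaks were left.

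Among the NuRD subunits HDAC2 alone was met with any frequency. It overlapped 104 H3K27me3 peaks (3.04%, 2.52 to 3.67), against 17 for MTA2, 14 for RBBP4 and 10 for CHD4. The HDAC2 list is the longest of the 4, with 20633 peaks, and of its peaks 0.494% met H3K27me3. H3K4me3 was also present at 74 of the 104 (71.2%). HDAC2 overlapped 23.5% of the 315 H3K27me3 peaks with H3K4me3 and 0.966% of those without.

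H3K27me3 lay in the body of 699 of 20037 protein-coding genes, a background of 3.49%, and without chromosome 8 of 657 of 19322, or 3.40%. On chromosome 8 alone it was 42 of 715, or 5.87%. A gene was counted from 1 bp of overlap upwards, and 415 of the 699 held a single peak. Long genes were hit more often. The median length was 80.8 kb in the 699 and 24.1 kb in all genes, and the share called was 9.27% among genes of at least 100 kb and 1.84% among those under 10 kb. Of 15843 genes off chromosome 8 with a known start, 390 (2.46%) had H3K27me3 within 1 kb of a start. H3K4me3 lay within 1 kb of a start in 236 of these 390, or 60.5%, against 61.1% of all 15843. For H3K27ac it was 18 of the 390, or 4.62%, against 42.2% of all 15843. Each mark was sought at any start of a gene, so the marks can lie at different starts. Of the 214 promoter windows with H3K27me3, 81 also held H3K4me3. Of long non-coding RNA genes 1.65% were overlapped. Of 1913 annotated miRNA genes 4 were overlapped (0.209%), of which 2 lay off chromosome 8, MIR3131 and MIR6720. Also off chromosome 8, MIR9-1 and MIR129-2, precursors of neuronal miRNAs, lay 274 and 299 bp from a peak, and MIR4787 lay 313 bp from one. Of 1562 miRNA precursors searched, 5 were overlapped or lay within 1 kb of a peak.

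After PTPRN2 and PRDM16, which held 33 peaks over 22.3 kb, the genes off chromosome 8 with the greatest overlapped length included PLXNA2, a semaphorin receptor (10.6 kb), HOXA3 (10.2 kb), CREB5, a CRE-binding factor (9.73 kb), DOCK8, an activator of CDC42 in immune cells (7.55 kb), and DMRT1, a factor of testis differentiation (7.45 kb). GCOM1 and MYZAP share their locus and therefore their peaks, at 10.2 and 9.85 kb. SP6 held 7.27 kb, MINDY4B 7.21 kb, CCDC141 5.94 kb, RNF220 5.59 kb and AUTS2, a gene of brain development, 5.56 kb. The first 20 closed with TCF21 (5.11 kb), MYO18B, a muscle myosin (4.91 kb), DPP6, a subunit of A-type potassium channels (4.75 kb), and COL6A3, a chain of collagen VI (4.61 kb). PLXNA2 also held 10 H3K27ac and 21 H3K4me1 peaks in its body, of which H3K27me3 covered 4.79%. In 9 genes, picked after their values were seen, at least 50% of the body was covered, namely WNT1 (88.3%), BHLHE23 (87.0%), HOXA5 (86.6%), TCF21 (79.5%), HES2 (70.3%), SP8 (64.9%), BHLHE41 (60.004%), SOX21 (57.9%) and the olfactory receptor gene OR6B3 (50.9%). These 9 genes are short, at 1.04 to 8.95 kb against a median of 24.1 kb in all genes, and a short body is more easily covered. All but OR6B3 and the secreted ligand WNT1 encode transcription factors. The share of transcription factors among short genes was not computed.

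Gene lists drawn from textbook knowledge, but chosen with earlier results of these data known, were read against the background of 3.49%. Their shares are therefore descriptive. Of 144 homeobox genes 16 carried H3K27me3 (11.1%, 6.96 to 17.3), with a median gene length of 5.78 kb, shorter than the median of all genes. Of the PAX genes, paired-box factors of organ patterning, 5 of 9 did (55.6%, 26.7 to 81.1), though their median length was 62.9 kb and 3.81% of all genes from 50 to 100 kb were called. The zinc-finger developmental factors stood at 7 of 39 (17.9%, 8.98 to 32.7), tissue bHLH factors at 5 of 39 (12.8%, 5.603 to 26.7), SOX factors at 3 of 20 (15.0%, 5.24 to 36.04), WNT ligands at 4 of 19 (21.1%, 8.51 to 43.3) and BMP, GDF and FGF ligands at 5 of 45 (11.1%, 4.84 to 23.5). Among Hedgehog ligands and receptors it was 3 of 10 (30.0%, 10.8 to 60.3), and these were the ligands SHH, DHH and IHH. Outside the homeobox genes, the intervals of 3 other developmental lists included the background. So did those of the HOXB, HOXC and HOXD clusters taken alone. Forkhead factors gave 1 of 42 (2.38%, 0.422 to 12.3), which was FOXF2. Of the 31 with a known start 3 had H3K27me3 within 1 kb of it, against 2.46% of all 15843 such genes. GATA and T-box factors gave 0 of 23 (0 to 14.3), and WNT inhibitors 1 of 11 (9.09%, 1.62 to 37.7), which was NOTUM.

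**Figure D4:**
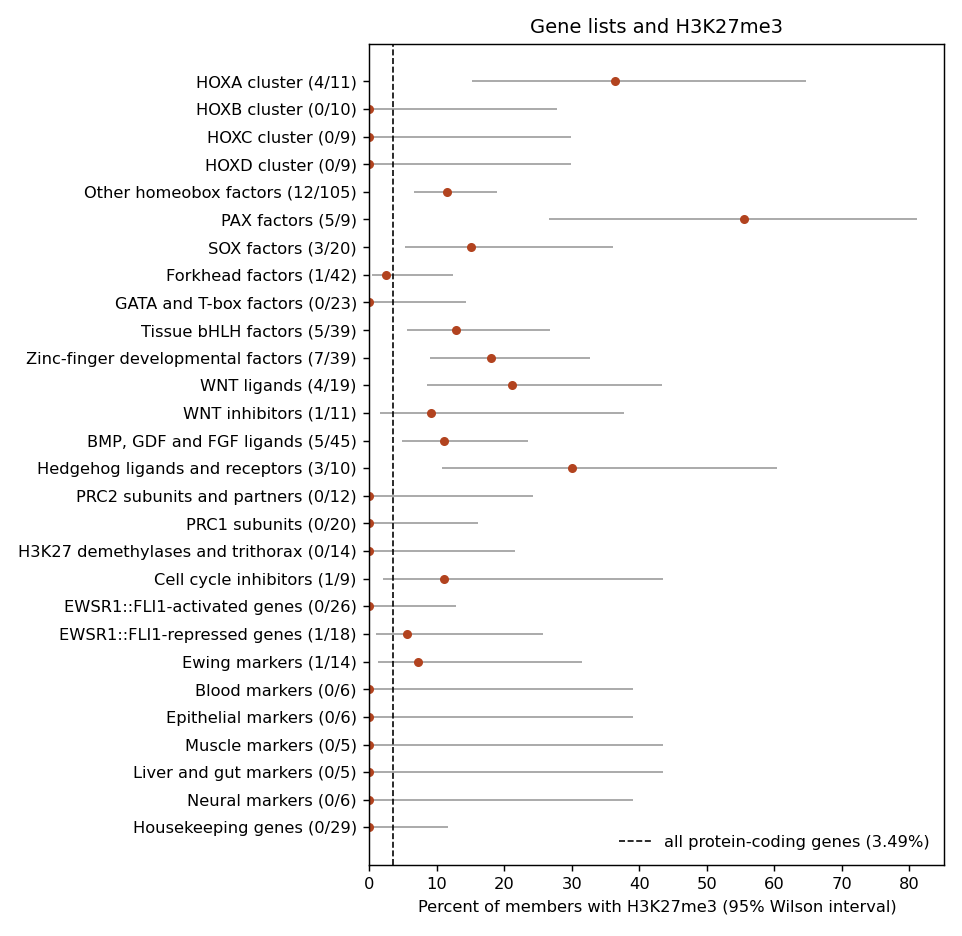
Percent of each gene list with at least 1 bp of H3K27me3 in the gene body, with 95% Wilson intervals and the counts beside each name. The dashed line marks 3.49% of all protein-coding genes, and PAX factors (5 of 9) and the HOXA cluster (4 of 11) lie farthest to its right.

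PAX2, a factor of kidney and eye development, had the greatest overlapped length of the PAX genes, with 10 peaks over 5.83 kb. PAX7, of muscle and neural crest, held 2 peaks over 2.37 kb at fold enrichments of up to 7.66, and its body also held 3 H3K27ac peaks. PAX4 held 1.78 kb, PAX6, the eye factor, a single peak of 8.86 over 0.477 kb, and PAX5, of B cells, 0.358 kb. The starts of PAX2, PAX6 and PAX7 also carried H3K4me3, and those of PAX4 and PAX5 did not. WNT1, which acts in midbrain patterning, was covered over 3.80 kb by a single peak of fold enrichment 5.93, and WNT11, WNT7B and WNT9A held 1.17, 0.852 and 0.533 kb. Among bHLH factors TCF21, of the epicardium and kidney, was followed by TWIST2 (2.64 kb), BHLHE23 (0.903 kb), TAL1 of blood formation (0.635 kb) and PTF1A of the pancreas (0.299 kb). The SOX members were SOX21 (1.69 kb), SOX8 (0.538 kb) and SOX14 (0.370 kb).

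Beside PRDM16, SP8 and PRDM12, a factor of pain-sensing neurons with 1.80 kb, the zinc-finger members were PRDM1 (3.04 kb), SP9 (1.47 kb), OVOL2 (1.43 kb) and SP5 (0.262 kb). FGF9 held 2.20 kb, FGF12 1.19 kb, FGF8 0.896 kb, FGF3 0.731 kb and BMP4 0.301 kb. Of the Hedgehog ligands SHH held 1.12 kb in 2 peaks, of which the higher reached 8.26, DHH held 0.818 kb and IHH 0.503 kb. Outside the HOX clusters 12 of 105 homeobox genes were overlapped (11.4%, 6.66 to 18.9). EMX1, of the cerebral cortex, led with 3.73 kb, followed by HMX3 (1.46 kb), GBX1 (1.33 kb), EMX2 (1.29 kb), LHX6 (1.21 kb) and NKX1-2 (1.10 kb). The other homeobox members were LHX2, IRX4, LMX1B, PROX1, DMBX1 and PDX1, with 0.197 to 0.849 kb.

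The HOX genes, which set position along the body axis, showed the mark inside gene bodies in a single cluster. HOXA3, HOXA4, HOXA5 and HOXA7 held H3K27me3, and no gene of the HOXB, HOXC and HOXD clusters did. The window of the HOXA cluster with 20 kb on each side held 10 peaks over 12.6 kb, with fold enrichments from 4.2003 to 8.91. HOXA5 was covered over 2.28 kb of 2.63 kb and HOXA7 over 1.12 kb of 2.96 kb. HOXA4 held 0.303 kb in a single peak of fold enrichment 4.90. The body of HOXA3 as annotated, at 45.6 kb, spans HOXA4 and HOXA5, so part of its 10.2 kb is theirs. All 4 genes also held H3K4me3 peaks and no H3K27ac peak. HOXA2, HOXA6 and HOXA9 held none of H3K27me3, H3K4me3, H3K27ac and H3K4me1. HOXA10, HOXA11 and HOXA13, toward the posterior end, held H3K4me3, and HOXA10 also H3K27ac.

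In the HOXB window 2 peaks of fold enrichment 4.15 and 4.93 lay outside gene bodies, 0.398 kb from HOXB8 and 0.697 kb from HOXB9. The HOXC and HOXD windows held 0 peaks. H3K27ac was present in HOXB3, HOXB6, HOXB7 and HOXB13, in HOXC4, HOXC5, HOXC6, HOXC10, HOXC11, HOXC12 and HOXC13, and in HOXD3, HOXD8, HOXD11, HOXD12 and HOXD13. HOXD1, HOXD4, HOXD9 and HOXD10, as well as HOXB1, HOXB2 and HOXB5, held no peak of the 4 histone marks, so many HOX genes were without either sign.

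**Figure D5:**
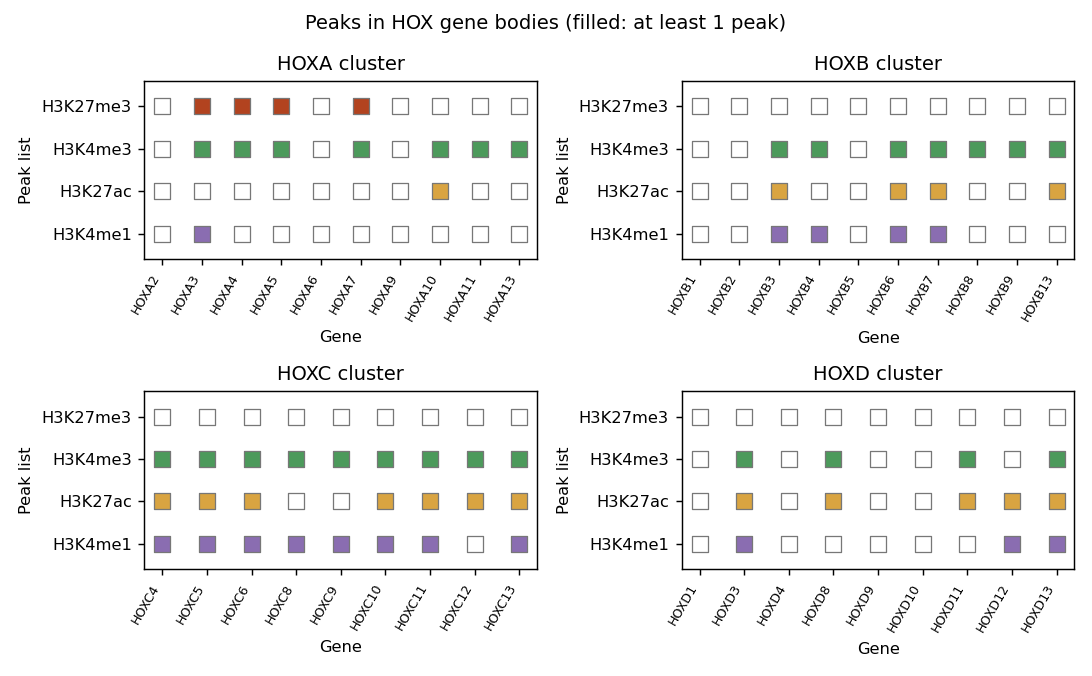
Peaks of the 4 histone marks in the body of HOX genes, where a filled square stands for at least 1 peak. H3K27me3 is filled in HOXA3, HOXA4, HOXA5 and HOXA7 and in no gene of the other 3 clusters.

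Of 14 Ewing markers H3K27me3 lay in PAX7 alone (7.14%, 1.27 to 31.5), an interval that includes the 3.49% of all genes. The markers NKX2-2, NR0B1, LIPI, KLF15, TCF4, SOX6, SOX2, PRKCB, STEAP1 and BCL11B all had H3K4me3 and H3K27ac within 1 kb of a start. CD99 and XG had neither there. In its body XG held 7 H3K27ac and 3 H3K4me1 peaks, and CD99 held neither mark. Of all 15843 genes with a known start 61.1% had H3K4me3 and 42.2% had H3K27ac within 1 kb of a start. No H3K27me3 lay in the genes listed as activated by EWSR1::FLI1 (0 of 26, 0 to 12.9%) or in housekeeping genes (0 of 29, 0 to 11.7%), and both intervals include the 3.49%. Of 18 genes listed as repressed by the fusion 1 was overlapped (5.56%, 0.988 to 25.8), CDKN1A, a cell cycle inhibitor that also stood alone among 9 such inhibitors. CDKN1A held 2 peaks over 1.20 kb with fold enrichments of up to 6.42, and H3K4me3 but no H3K27ac near its start. Genes of the Polycomb and trithorax machinery, 46 in 3 lists, held no H3K27me3 (0 to 7.71%, which also includes the 3.49%). Of the 41 with a known start 35 carried H3K27ac within 1 kb of a start, against the 42.2% of all such genes.

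Of 28 markers of blood, epithelium, muscle, liver and gut, and neural cells, 0 held an H3K27me3 peak (0 to 12.1%, against 3.49% of all genes, which lies inside it). Of the 13 with a known start 2 had H3K4me3 and 0 had H3K27ac within 1 kb of it. Among all 15843 genes with a known start the shares were 61.1% and 42.2%. PTPRC, MYOD1, ALB and NEUROD1, which mark leukocytes, muscle, liver and neurons, had neither H3K27me3 nor H3K4me3 in the gene, although PTPRC held 7 H3K27ac peaks. Other markers differed. KRT18, CDX2, NEUROG2 and SYP held H3K4me3 in the gene, and KRT18, SYP and GRHL2 held H3K27ac.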

How the data were processed

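Chromatin immunoprecipitation followed by sequencing (ChIP-seq) in SK-N-MC gave 9 peak lists, grouped by the target in their labels; the 2 input libraries were not analysed here. The submitters' processing notes name bedtools 2.27.1, deepTools 3.2.1, SAMtools 1.9, BWA 0.7.17, FastQC 0.11.7, Trimmomatic 0.36 and the build GRCh38. The deposited peaks are named after MACS2, but its version, the control library, any pooling and any excluded regions were not given in the sources used here. For H3K27me3 the lowest −log10 p as deposited was 9.09, against 7.01 for RBBP4 and 5.02 for FLI1, so the lists start at different thresholds. Each peak has a fold enrichment, a ratio at the summit from the authors' caller, and deposited values of −log10 p and of −log10 q; these are the authors' values and served only to describe and rank peaks within a list. In the H3K27me3 list 62 peak numbers are missing, without a stated reason. Depth is unknown.

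Coordinates were made 1-based. Peaks overlapped from 1 bp and formed domains when at most 5 kb apart. Genes came from RefSeq on GRCh38.p14 (20037 protein-coding genes on chromosomes); promoter windows came from RefSeq on the same build, which for protein-coding genes held 15843 symbols and none on chromosome 8. All but 1 of 542 listed genes matched by symbol, C1orf43 being the exception. Since the lists have no replicates, no test was run. The members and lists were chosen with earlier results of these data known. Named were the 12 domains of greatest covered length off chromosome 8 and 3 on it, the 10 peaks of highest fold enrichment and the 20 genes of greatest overlapped length off chromosome 8, the HOX genes, up to 6 members of each other list, and the promoters shown; 1 gene is not reported here, and other names, such as those of rare chromosomes, further homeobox and zinc-finger members, TG, ADCY8, KCNQ3, miRNAs and tissue markers, were added after their values were seen. Alternatives were a −log10 p of at least 15, other gaps, windows and overlaps, and no chromosome 8. Interval code was checked on simulated intervals. Python 3.11.15, NumPy 2.4.6, pandas 2.3.3, SciPy 1.17.1 and matplotlib 3.10.9 were used.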

Additional observations from a re-analysis of the deposited data

How the results depend on the processing

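Of 26 alternative values over 8 results, 11 stayed within the main interval or within 1.5 times the main count and 15 moved. At −log10 p 15 or above, applied to all 9 lists, there were 879 domains, a median fold enrichment of 7.27, 32.4% of peaks on chromosome 8, 14.3% overlapping H3K4me3 and 24.2% within 1 kb of a gene end, 2.16% of protein-coding genes overlapped and 6.25% of homeobox genes. Without chromosome 8 the median fold enrichment was 6.597, the H3K4me3 share 12.3% and the share near gene ends 22.9%. The H3K4me3 share was 5.88% with the summit inside and 4.12% with 50% of the peak covered. The share near gene ends was 30.9% with 5 kb. Genes overlapped were 3.86% with 1 kb added to each body and 2.33% with at least 500 bp. The H3K27ac share was 0 in every setting run. The homeobox share stayed above that of all genes in each setting where both were computed. No paired analysis was possible because there was 1 H3K27me3 sample. The unknown depth limits how far a missing peak can be read.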
